A study of Mus musculus with 6 samples.

Results

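The TGF-beta and activin signalling genes examined here are 10 mouse genes, taken by symbol from 54309 genes in 6 RNA-seq libraries of the distal sciatic nerve. They are 5 ligand genes (Tgfb1, Tgfb2, Tgfb3, Inhba and Inhbb), 3 receptor genes (Tgfbr1, Tgfbr2 and Tgfbr3) and 2 genes of feedback and antagonism (Fst and Smad7). Each symbol belonged to 1 gene, and all 10 passed the filter on low counts, which kept 19129 genes. The left sciatic nerves came from C57BL/6 mice of 6 to 8 weeks, 3 libraries from females and 3 from males, each made from the pooled tissue of 2 animals and collected 24 h after surgery. No group carried a transgene or an agent by the labels. The treatment field names axotomy, the cutting of the nerve, for all 6 libraries, whereas the written procedure describes a sham operation in which the nerve was exposed and not cut, so which surgery the nerves had is not settled by the labels. The one contrast is female against male, with no unoperated group among the libraries used.

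TGF-beta ligands are made as latent dimers that must be released before they bind. A released ligand brings together the type II receptor Tgfbr2 and the type I receptor Tgfbr1, a kinase that phosphorylates Smad2 and Smad3, which enter the nucleus with Smad4. Tgfbr3, or betaglycan, is a coreceptor that presents ligand, TGF-beta 2 above all, to Tgfbr2. Activins are dimers of the subunits encoded by Inhba and Inhbb, they signal through other receptors to the same Smads, and follistatin, the product of Fst, binds and neutralizes them. Smad7 is induced by the pathway and blocks its type I receptors. In injured peripheral nerve TGF-beta is known for its effects on Schwann cells, fibroblasts and macrophages.

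Libraries held 55272138 to 77610593 estimated reads, and the 10 genes had between 221 (Tgfb2) and 25854 (Tgfbr2) reads in any 1 library. Defining Schwann cell markers were present in every library (Sox10 at 170 to 278 CPM, reads scaled to a common library total), and the neuronal nucleus marker Rbfox3 was at 0.0436 to 0.312 CPM. Of the other neuron markers, Tubb3 was at 16.05 to 20.4 CPM and Snap25 at 1.58 to 5.29 CPM. Scn9a and Isl1 did not exceed 0.339 CPM. Skeletal muscle markers stood apart in female 2 and male 1: the 8 markers summed to 1696 and 890 CPM there and to 5.48 to 23.9 CPM in the other libraries. In bulk tissue, fewer cells of a type and less RNA per cell cannot be told apart.

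Promoter sequences are given for the most and the least abundant TGF-beta ligand and for Tgfbr1, the gene with the largest difference between the sexes. The RefSeq promoter table (GRCm38.p6) had entries for 6 of the 10 genes, 7 in all; Tgfb3, Tgfbr3, Fst and Smad7 had none. Each run is the 250 bases before the start, 5′ to 3′ on the gene's strand. Capitals mark the SMAD box CAGAC, the GC box GGGCGG and the TATA box TATAAA, each searched on both strands, so that a GC box on the other strand reads CCGCCC; none of the marked matches overlap.
Tgfb1, chr7:25686752-25687001, plus strand: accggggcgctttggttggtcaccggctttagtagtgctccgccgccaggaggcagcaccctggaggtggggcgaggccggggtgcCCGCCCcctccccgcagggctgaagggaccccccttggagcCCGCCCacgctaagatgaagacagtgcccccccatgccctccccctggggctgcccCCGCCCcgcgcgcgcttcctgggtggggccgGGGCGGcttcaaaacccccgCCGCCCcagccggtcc
Tgfb2, chr1:186705990-186706239, minus strand: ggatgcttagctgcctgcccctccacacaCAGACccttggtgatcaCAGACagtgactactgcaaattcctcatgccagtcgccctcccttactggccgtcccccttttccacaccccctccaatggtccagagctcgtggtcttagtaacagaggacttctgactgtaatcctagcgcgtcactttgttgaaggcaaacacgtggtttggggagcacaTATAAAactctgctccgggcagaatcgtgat
Tgfbr1, chr4:47352972-47353221, plus strand: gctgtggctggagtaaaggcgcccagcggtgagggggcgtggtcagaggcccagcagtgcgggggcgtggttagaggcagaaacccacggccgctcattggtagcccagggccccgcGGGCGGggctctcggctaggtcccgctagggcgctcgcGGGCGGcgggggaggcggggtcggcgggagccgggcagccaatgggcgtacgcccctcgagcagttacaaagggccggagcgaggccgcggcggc

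The Tgfb1 window held 5 GC boxes, no SMAD box and no TATA box. The Tgfb2 window held 2 SMAD boxes and a TATA box that begins 31 bases before the start, with no GC box, and the Tgfbr1 window held 2 GC boxes alone. The G and C content was 75.2% for Tgfb1, 53.6% for Tgfb2 and 74.8% for Tgfbr1. Among 32851 promoter windows of the same length, 42.2% held a SMAD box, 32.7% a GC box and 12.4% a TATA box. Neither the SMAD palindrome GTCTAGAC (0.167% of windows) nor the AP-1 site TGANTCA (6.75%), both searched on both strands, occurred in the 7 windows. These matches describe letters only.

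The other Tgfbr1 window and the windows of Tgfbr2, Inhba and Inhbb are not shown. The other Tgfbr1 window and the Tgfbr2 window each held 1 SMAD box, the Inhba window 1 TATA box, 91 bases before the start, and the Inhbb window 1 GC box.

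Levels were compared between genes on the TPM scale, which divides reads by transcript length and scales each library to the same total. Tgfbr2 was the most abundant of the 10, at 97.6 ± 12.2 TPM over the 6 libraries (SD, n = 6), above 91.7% of the genes kept. Tgfbr3 followed at 71.0 ± 8.80, Tgfb1 at 46.0 ± 5.83 and Tgfbr1 at 24.4 ± 3.51 TPM. Fst (16.2 ± 4.98), Tgfb3 (14.96 ± 1.66), Inhba (8.62 ± 1.46), Smad7 (7.59 ± 0.687) and Inhbb (5.51 ± 0.769) came next, and Tgfb2 was lowest at 1.72 ± 0.342 TPM, above 27.9% of the genes kept.

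The order held library by library for most neighbours. The ranges over libraries did not overlap between Tgfbr3 and Tgfb1, Tgfb1 and Tgfbr1, Tgfb3 and Inhba, Smad7 and Inhbb, or Inhbb and Tgfb2. Tgfbr2 was above Tgfbr3 in 6 of 6 libraries although the ranges overlapped. The ranges of Tgfbr1 and Fst, Fst and Tgfb3, and Inhba and Smad7 overlapped, and each pair changed places in at least 1 library. Tgfbr1 was above Fst in 5 of 6 libraries, all but male 3. There the Fst sum included a retained-intron transcript described below. On protein-coding transcripts alone Fst was at 10.6 to 17.5 TPM, below the range of Tgfbr1 (19.96 to 28.5 TPM), and still changed places with Tgfb3.

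**Figure D1:**
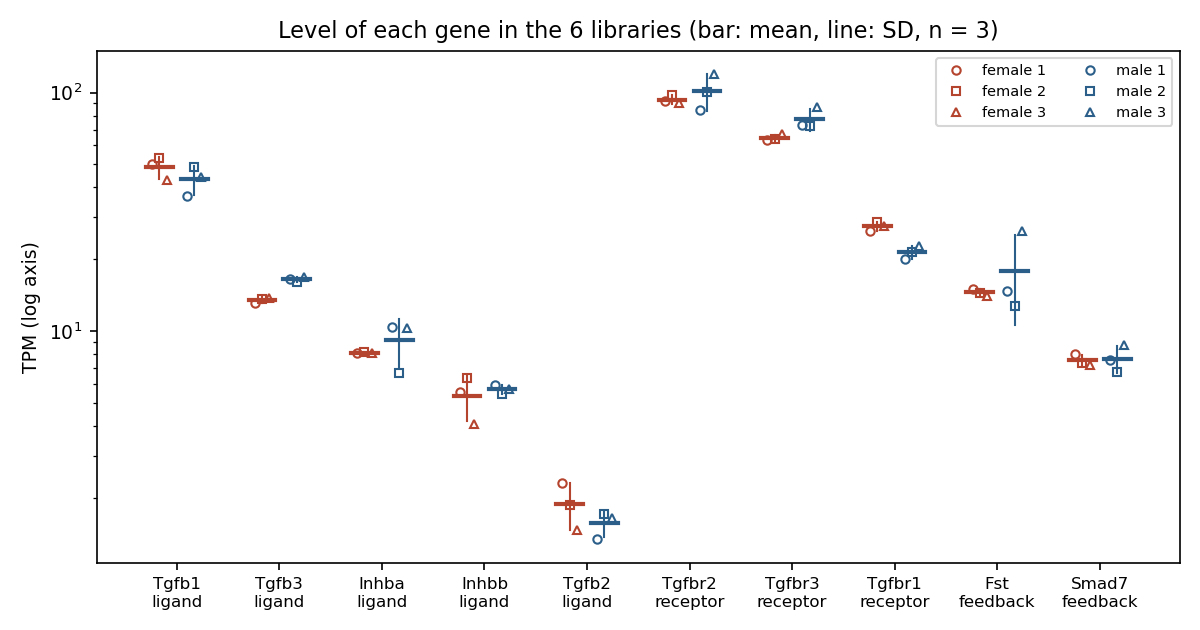
TPM of each gene (log axis) in the 3 female (red) and 3 male (blue) libraries; symbols give the replicate, thick bars the mean and thin lines the SD. The receptors Tgfbr2 and Tgfbr3 lie highest and Tgfb2 lowest, and the sexes do not overlap for Tgfbr1, Tgfb3 and Tgfbr3. In CPM these genes separate too, as do 9.65% of all genes with females higher and 11.5% with males higher.

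Between the sexes, the largest difference was in Tgfbr1, the type I receptor, which was 1.29-fold higher in female nerves on the fitted scale, and the next were in Tgfb3 and the coreceptor Tgfbr3, both higher in males (fitted female levels of 0.82 and 0.83 of the male level). None of the 10 genes passed an adjusted p of 0.05 by edgeR's quasi-likelihood test with Benjamini-Hochberg adjustment over all genes. That test called 21 genes, or 0.110% of those tested: 0.0157% with the female level higher and 0.0941% with the male level higher. At an unadjusted p under 0.05 edgeR picked 3 of the 10 (Tgfbr1, Tgfb3 and Tgfbr3), where it picked 14.6% of all genes. DESeq2 called the same 3 genes and 5.28% of the genes it gave an adjusted p, limma-voom and limma on log2(TPM) called none of the 10, and edgeR without a low-count filter called Tgfbr1 (adjusted p = 0.0435) and 0.598% of all genes.

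Of the 10 genes, 7 had a log2 fold change (female minus male) below 0 and 3 above, against 46.4% of all genes below 0. Their median was -0.13, against 0.016 for all genes. It was -0.073 without male 3, -0.082 without male 1 and -0.16 without female 2. In CPM scaled by TMM, an estimate of relative library size, all females exceeded all males for 1 of the 10 genes, Tgfbr1, against 9.65% of all genes. All males exceeded all females for 2 of the 10, Tgfb3 and Tgfbr3, against 11.5% of all genes. The 10 genes thus lay on both sides of 0.

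**Figure D2:**
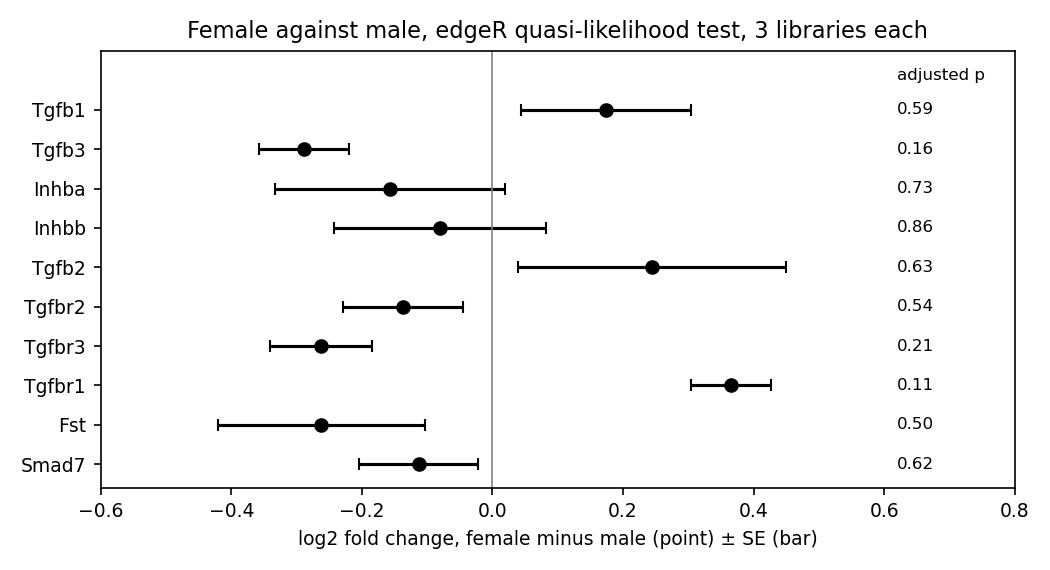
Log2 fold change of female against male nerves (point) with its SE (bar) for each gene, and the adjusted p of edgeR's test beside it. Tgfbr1 has the largest value, 0.37, Tgfb3 and Tgfbr3 lie at -0.29 and -0.26, and the smallest adjusted p is 0.108.

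Tgfb1, the ligand released by platelets and macrophages in wounds, was the main TGF-beta ligand RNA. It was at 50.1, 53.1 and 42.9 TPM in the female libraries (1, 2 and 3) and at 36.9, 48.7 and 44.4 TPM in the male libraries. The groups overlapped, with male 1 lowest and female 2 highest. The log2 fold change was 0.17 (SE 0.13, edgeR adjusted p = 0.590), and it was -0.011 without female 2 and male 1, the libraries with muscle transcripts. Leaving out 1 library gave 0.079 (without male 1) to 0.28 (without male 2).

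Tgfb3, a ligand that binds Tgfbr2 directly, was at 13.1, 13.7 and 13.7 TPM in females 1, 2 and 3, and at 16.6, 16.0 and 16.8 TPM in males 1, 2 and 3. Each group kept within a narrow range and the ranges did not meet. The log2 fold change was -0.29 (SE 0.07, edgeR adjusted p = 0.159). It stayed below 0 under each alternative, from -0.32 to -0.23, with DESeq2 giving an adjusted p of 0.0307.

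Tgfb2, which depends on betaglycan for high-affinity binding, was scarce. It had 2.31, 1.86 and 1.46 TPM in females 1, 2 and 3, and 1.33, 1.70 and 1.65 TPM in males 1, 2 and 3, and the groups overlapped. Its log2 fold change was 0.24 (SE 0.21, edgeR adjusted p = 0.634); it was 0.022 without female 1, the highest library, and 0.43 without female 3.

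Of the summed TPM of the 3 TGF-beta ligand genes, Tgfb1 took 67.3% to 77.4%, Tgfb3 19.9% to 30.2% and Tgfb2 2.44% to 3.52% over the libraries. The Tgfb1 share was 76.5%, 77.4% and 73.9% in females 1, 2 and 3, and 67.3%, 73.3% and 70.7% in males 1, 2 and 3. Every female share was above every male one, though female 3 and male 2 were close. The means differed by 5.48 percentage points (75.9 ± 1.82 against 70.4 ± 3.00, SD, n = 3 each; two-sided exact permutation test, p = 0.10, the smallest p that 3 against 3 can give). Taken on estimated reads the difference was 6.67 points with an exact p of 0.20, and without female 2 and male 1 it was 3.20 points.

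Inhba, which encodes the subunit of activin A, was nearly constant among females, at 8.09, 8.15 and 8.08 TPM in libraries 1 to 3. Males 1 to 3 were at 10.44, 6.68 and 10.3 TPM, so that the males lay on both sides of the females. The log2 fold change was -0.16 (SE 0.18, edgeR adjusted p = 0.730), and it was 0.026 without male 1 and -0.34 without male 2.

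Inhbb, the activin B subunit, was at 5.57, 6.33 and 4.08 TPM in females 1, 2 and 3, and at 5.92, 5.42 and 5.73 TPM in males 1, 2 and 3. Here the females spread around the males. Its log2 fold change was -0.08 (SE 0.16, edgeR adjusted p = 0.865) and became 0.087 without female 3, the lowest library, and -0.24 without female 2.

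Tgfbr1, also called ALK5, was at 26.4, 28.5 and 27.4 TPM in females 1, 2 and 3, and at 19.96, 21.5 and 22.6 TPM in males 1, 2 and 3. All 3 female libraries lay above all 3 male ones. The log2 fold change was 0.37 (SE 0.06, edgeR adjusted p = 0.108), it lay between 0.33 and 0.39 under the alternatives, and DESeq2 gave an adjusted p of 0.000337. Transcript Tgfbr1-201 carried 90.3% to 94.9% of its TPM, at 25.0, 25.8 and 24.9 TPM in females 1, 2 and 3, and at 18.8, 19.9 and 20.97 TPM in males 1, 2 and 3. The main transcript alone was thus also higher in every female library than in any male one.

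Markers of macrophages and monocytes were above 0 for 8 of 8 genes (median log2 fold change 0.26, none called by edgeR), and their summed level was 3688 to 4550 CPM in females and 3111 to 4412 CPM in males. Neutrophil markers were above 0 for 7 of 7 genes, with sums of 1075 to 1903 CPM in females and 727 to 1425 CPM in males. Endothelial markers (6 of 6, median 0.14; 264 to 400 against 296 to 337 CPM), adipocyte markers (6 of 6, median 0.37; 361 to 1129 against 451 to 728 CPM) and skeletal muscle markers (8 of 8, median 0.87, with the sums given above) were above 0 as well. All 5 sums overlapped between the sexes. The part of these cell types in the Tgfbr1 difference was not tested.

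Tgfbr3 was at 63.1, 63.8 and 66.9 TPM in females 1, 2 and 3, and at 72.9, 72.1 and 86.9 TPM in males 1, 2 and 3. The male values were all higher, and male 3 was the highest. The log2 fold change was -0.26 (SE 0.08, edgeR adjusted p = 0.207), with a range of -0.32 to -0.22 under the alternatives and a DESeq2 adjusted p of 0.0401. Without female 2 and male 1 the log2 fold change was -0.24 for Tgfbr3, -0.25 for Tgfb3 and 0.39 for Tgfbr1.

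In 3 marker lists the log2 fold changes lay in the direction of Tgfb3 and Tgfbr3. Schwann cell markers were below 0 for 8 of 8 genes and summed to 10617 to 16629 CPM in females and 21774 to 29676 CPM in males. For nerve fibroblasts 7 of 8 were below 0 (5254 to 6154 against 7569 to 9452 CPM), and for perineurial cells, which wrap nerve fascicles, 7 of 7 (744 to 925 against 945 to 1053 CPM). The fibroblast marker above 0 was Pdgfra, at 343 to 361 CPM in females and 308 to 370 CPM in males. In each list some single markers overlapped between the sexes, such as Dpt, Erbb3 and Slc2a1. Of all genes, 11.5% had every male library above every female one in scaled CPM. The sums of these 3 lists did not overlap between the sexes. None of their genes was called by edgeR's test with all 6 libraries and the low-count filter; Col1a1, in the fibroblast list, was called by DESeq2, by edgeR without that filter and by edgeR without male 1. The part of these cell types in the Tgfb3 and Tgfbr3 values was not tested.

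Tgfbr2, the ligand-binding type II receptor, was at 92.2, 97.9 and 90.5 TPM in females 1, 2 and 3, and at 84.5, 101 and 120 TPM in males 1, 2 and 3. Males were both the lowest and the highest, and the log2 fold change was -0.14 (SE 0.09, edgeR adjusted p = 0.543). It was -0.063 without male 3 and -0.23 without female 2 and male 1.

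For 8 of the 10 genes, Tgfbr1 included, 1 transcript carried at least 75.7% of the TPM in each library. Tgfb3 and Inhbb had only 1 listed transcript each, so that Tgfb3-201 and Inhbb-201 held all of it by annotation. Inhba-201 held all of it with 2 transcripts listed. Tgfbr3-201 held 96.7% to 99.5%, Tgfb1-201 90.3% to 94.4%, Smad7-201 83.3% to 100% and Tgfb2-201 75.7% to 89.5%. Tgfbr2 and Fst were divided among several transcripts.

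Both annotated Tgfbr2 transcripts were present. Tgfbr2-201 held 51.5% to 60.9% of the gene's TPM and Tgfbr2-202 the other 39.1% to 48.5%, with means for Tgfbr2-201 of 58.5 ± 2.58% in females and 55.6 ± 3.57% in males (SD, n = 3 each), a gap within the spread. In the GENCODE M21 annotation (GRCm38) the longer coding form differs by 1 coding exon, the second, which adds 75 bases or 25 codons to 567 and leaves the rest of the coding sequence identical. This exon lies in the part of the gene that encodes the extracellular domain, and the form with it is known as TbetaRII-B. The exon is shown because it is the one coding difference between the forms; it is in capitals, with 15 coding bases on each side in lower case.
Tgfbr2-202 second coding exon, chr9:116158271-116158345, minus strand: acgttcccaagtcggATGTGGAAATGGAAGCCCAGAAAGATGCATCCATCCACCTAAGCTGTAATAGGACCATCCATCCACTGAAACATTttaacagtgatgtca

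The transcripts also differ in full length, 3476 and 8092 bases, so that reads outside the exon contribute to how Salmon, the quantification program, divides them. The share of the 2 forms is therefore an estimate from the whole transcript, not a count of reads over this exon.

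Fst, whose product binds activins, was at 15.1, 14.5 and 14.0 TPM in females 1, 2 and 3, and at 14.7, 12.7 and 26.2 TPM in males 1, 2 and 3. Male 3 was far above the rest and the groups overlapped. The log2 fold change on reads was -0.26 (SE 0.16, edgeR adjusted p = 0.503), and it was -0.083 without male 3 and -0.41 without male 2.

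Part of the height of male 3 lay in a short non-coding transcript. Fst-203, a retained-intron transcript of 673 bases, was at 8.24 TPM in male 3 (102 reads) and 4.05 TPM in female 1 (73.5 reads) and was listed at 0 in the other 4 libraries. The coding transcript Fst-201 was lowest in the same libraries, at 1.36 TPM in male 3 and 1.74 TPM in female 1, against 2.80 to 3.85 TPM elsewhere. The sums over coding transcripts depend on how Salmon divided reads between Fst-201 and Fst-203, which was not tested. Summed over the 4 protein-coding transcripts, Fst was at 10.6, 13.9 and 13.5 TPM in females 1, 2 and 3, and at 14.4, 12.2 and 17.5 TPM in males 1, 2 and 3. Male 3 stayed highest and the means were 12.7 ± 1.83 and 14.7 ± 2.68 TPM (SD, n = 3 each).

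The main coding transcript, Fst-202, encodes 317 codons, Fst-201 encodes 344 and Fst-205 encodes 343, per GENCODE M21. Over the libraries Fst-201 took 7.79% to 27.7% of the coding TPM and Fst-205 took 14.2% to 19.6%. As for Tgfbr2, such shares are estimates from whole transcripts. The shorter form of follistatin is known to stay at the cell surface and the longer one to circulate. Fst-202 took 66.1%, 54.2% and 59.6% of the coding TPM in females 1, 2 and 3, and 61.4%, 57.0% and 78.03% in males 1, 2 and 3, and it was the most abundant Fst transcript in every library.

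**Figure D3:**
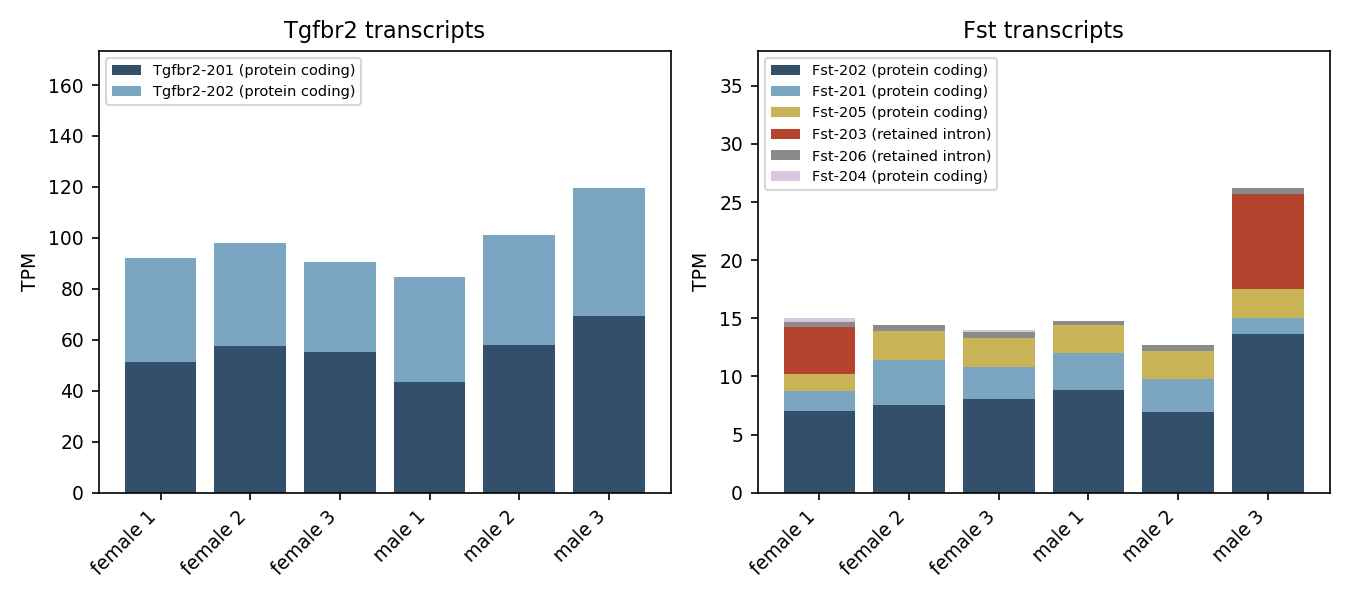
Stacked TPM of each annotated Tgfbr2 (left) and Fst (right) transcript in the 6 libraries. Both Tgfbr2 forms are present in every library. The retained-intron transcript Fst-203 (red) is assigned TPM only in female 1 (4.05 TPM) and male 3 (8.24 TPM), the libraries where Fst-201 is lowest.

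The ratio of Inhba to Fst, a ligand subunit against its binding protein, was 0.537, 0.564 and 0.576 in TPM in females 1, 2 and 3, and 0.708, 0.527 and 0.393 in males 1, 2 and 3. Fst RNA thus exceeded Inhba RNA in all 6 libraries. The log2 ratio was -0.84 ± 0.05 in females and -0.92 ± 0.43 in males (SD, n = 3 each), a difference of 0.084 (two-sided exact permutation test, p = 0.70) that was -0.13 without male 3. With protein-coding Fst transcripts alone, an alternative chosen after seeing the data, the difference was 0.064 (exact permutation p = 0.60).

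Smad7, the inhibitory Smad, was at 8.02, 7.34 and 7.22 TPM in females 1, 2 and 3, and at 7.52, 6.73 and 8.70 TPM in males 1, 2 and 3. Its groups overlapped fully, with a log2 fold change of -0.11 (SE 0.09, edgeR adjusted p = 0.622) that was -0.059 without male 3 and -0.17 without female 1. Over the 10 genes, male 3 held the highest TPM for 5 (Tgfbr2, Tgfbr3, Fst, Tgfb3 and Smad7) and male 1 the lowest for 4 (Tgfbr2, Tgfb1, Tgfbr1 and Tgfb2).

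The remaining genes of the pathway were followed through 7 lists with 53 genes found in the files, of which 47 passed the low-count filter. None of the 47 passed the adjusted p of 0.05 in edgeR, against 0.110% of all genes, and 12 (25.5%) had an unadjusted p under 0.05, against 14.6% of all genes. DESeq2 called 4 (Skil, Tgif1, Col1a1 and Postn), where it called 5.28% of all genes, and the limma fits called none. Below 0 were 28 of the 47, with a median of -0.06, against 46.4% of all genes and a median of 0.016.

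Among the other ligands 2 of 6 genes were kept. Inha, the inhibin subunit, was at 1.57 ± 0.259 TPM in females and 1.37 ± 0.185 TPM in males, and Gdf11, an activin-like ligand, at 4.19 ± 0.624 and 4.11 ± 0.0891 TPM (SD, n = 3 each). Inhbc, Inhbe, Nodal and Mstn had at most 18 reads in any library. Both kept genes had overlapping groups, with log2 fold changes of 0.20 and 0.015 (edgeR adjusted p = 0.681 and 0.969).

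Genes that hold TGF-beta latent or release it had 8 of 10 log2 fold changes below 0 (median -0.16, none called by edgeR). With female 1 left out that median was -0.068, and with male 2 left out -0.26. Itgav, the integrin subunit that binds latent TGF-beta, was at 74.0, 80.2 and 81.0 TPM in females 1, 2 and 3, and at 88.0, 88.5 and 97.8 TPM in males 1, 2 and 3 (log2 fold change -0.21, edgeR adjusted p = 0.234). Lrrc32, which anchors latent TGF-beta at the cell surface, was at 31.2 ± 4.11 TPM in females and 37.6 ± 2.13 TPM in males (SD, n = 3 each; -0.30, edgeR adjusted p = 0.246). For both genes all males exceeded all females in scaled CPM, as for 11.5% of all genes.

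The other receptors had 3 of 7 genes below 0 and 4 above. Acvr2b, an activin type II receptor, had -0.25 (edgeR adjusted p = 0.549), and Tdgf1, an EGF-CFC coreceptor at no more than 23 reads in a library, had -0.81 (edgeR adjusted p = 0.474). Acvr1b and Acvr2a, the main activin receptors by level, had 0.010 and 0.015.

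Of the extracellular antagonists, Fstl3, a follistatin relative, was at 27.7, 27.2 and 25.7 TPM in females 1, 2 and 3, and at 35.1, 34.3 and 30.1 TPM in males 1, 2 and 3 (log2 fold change -0.33, SE 0.10, edgeR adjusted p = 0.197). All 3 male libraries were higher, also in scaled CPM, where 11.5% of all genes had this order. Bambi, a decoy receptor, had 0.074 (edgeR adjusted p = 0.848), and 2 of the 3 antagonists kept were below 0.

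The list of Smad transducers, which also held the inhibitory Smad6 (0.0012), lay close to 0. Its values ran from -0.12 for Zfyve9, which recruits Smads to the receptor, to 0.12 for Smad4 (edgeR adjusted p = 0.552 and 0.482). Of the 5 genes, 2 were below 0 and none had an unadjusted p under 0.05.

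Intracellular inhibitors held the nuclear repressors Skil and Tgif1, which lay on the female side as Tgfbr1 did. Skil, a corepressor of Smads, was at 23.0, 25.9 and 24.0 TPM in females 1, 2 and 3, and at 17.5, 19.0 and 22.0 TPM in males 1, 2 and 3 (log2 fold change 0.33, SE 0.06, edgeR adjusted p = 0.126; DESeq2 adjusted p = 0.00129). Tgif1, a homeodomain repressor, was at 48.0, 55.9 and 42.5 TPM in females 1, 2 and 3, and at 35.1, 36.4 and 41.5 TPM in males 1, 2 and 3 (0.38, SE 0.09, edgeR adjusted p = 0.161; DESeq2 adjusted p = 0.0288). No female library of either gene lay below a male one, as for 9.65% of all genes in scaled CPM, and both were named for the smallest p in the list. The other 5 inhibitors ran from -0.12 to 0.04. The lowest of them, Ski, had all males above all females in scaled CPM, as did 11.5% of all genes.

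Target genes were below 0 for 10 of 13 (median -0.26, none called by edgeR). The median was -0.15 without male 1, -0.33 without male 3, and -0.13 without female 2 and male 1 together. Col1a1, a collagen I chain, was at 285, 264 and 277 TPM in females 1, 2 and 3, and at 382, 516 and 612 TPM in males 1, 2 and 3 (log2 fold change -0.85, SE 0.15, edgeR adjusted p = 0.117). Postn, which encodes periostin, was at 118 ± 15.9 against 167 ± 22.7 TPM (SD, n = 3 each; -0.53, edgeR adjusted p = 0.161). Col1a1 is also a fibroblast marker, and the fibroblast sums given above lay on the same side; their part was not tested. Without male 1, and without female 2 and male 1 together, Col1a1 passed in edgeR's test (adjusted p = 0.0402 and 0.0398).

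**Figure D4:**
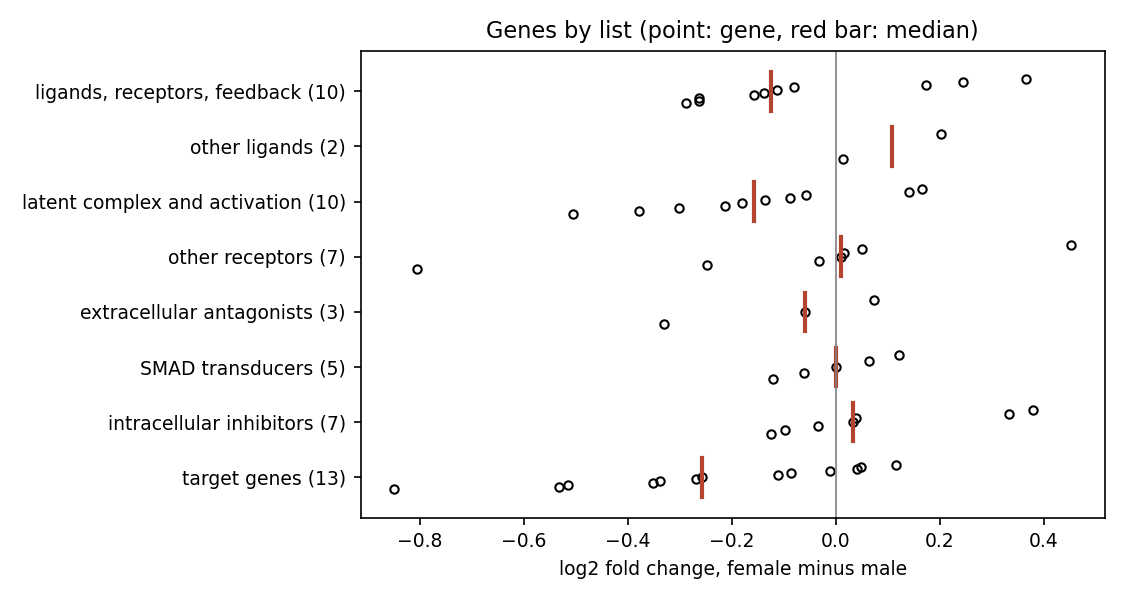
Log2 fold change of female against male nerves for each gene kept (points), by list, with the median (red bar) and the number of genes in parentheses. Medians run from -0.26 for target genes to 0.11 for the 2 other ligands, and the 10 ligands, receptors and feedback genes lie at a median of -0.13.

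Likeness of pattern was measured by Pearson's r of log2 CPM over the 6 libraries among genes with a mean of at least 10 CPM, for the 4 genes with the largest differences. Tgfbr1 was most like Psmd14 (r = 0.99) and Gmpr2 (r = 0.99), and Tgfb3 most like Dlgap4 (r = 0.998) and Trim32 (r = 0.997). Tgfbr3 was most like Ust (r = 0.99) and Cmtm4 (r = 0.99), and Fst most like Csmd1 (r = 0.99) and Pcdhga10 (r = 0.97). Of 10370 genes, 67 had an r above 0.95 with Tgfbr1, 180 with Tgfb3, 40 with Tgfbr3 and 3 with Fst. The points share the libraries and the sex of the mice, and no chance level of r over the 6 libraries was computed.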

How the data were processed

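Reads of paired 100-cycle sequencing of poly-A selected, stranded libraries were processed by the authors with Trimmomatic 0.39, Salmon 1.5.2 and MultiQC 1.9, per the submitters' processing notes. Per the file headers, the authors deposited an estimated count and a TPM value for each of 140789 transcripts. The sources used here do not name the genome build, the annotation release or the strand setting of the counting.

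Estimated counts and TPM were summed over each gene's transcripts, and counts were rounded. edgeR 4.0.16 (R 4.3.3) kept 19129 genes by filterByExpr, scaled libraries by TMM (factors 0.968 to 1.02) and compared female with male by its quasi-likelihood test with robust estimation, all 6 libraries and no covariate. SE is the fold change divided by the root of F. The script was tested on simulated data. DESeq2 1.42.0 and limma 3.58.1, the latter on voom values and on log2(TPM + 1) with genes of at least 0.5 TPM in 3 libraries, were alternatives, as were other scalings and filters, the replicate number as a block, and left-out libraries. No 2 libraries agreed within sampling noise (chi-square per degree of freedom at least 26.3). Each library was made from 2 pooled mice of the 6 in its group, per the labels' protocols. A count of 0 allows up to 3 reads, at most 0.0543 CPM; this covers counting error only.

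All 10 members are named, with the 2 genes of smallest p and every called gene of each pathway list, the transcript of highest mean TPM of each member, and the 2 most alike genes for the 4 members of largest fold change; other names were chosen after their values were seen. Members and lists were chosen with earlier results of these data known. Promoters came from RefSeq, coding lengths from GENCODE M21 by transcript name, where lengths matched for the 5 transcripts used.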

Additional observations from a re-analysis of the deposited data

How the results depend on the processing

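Over 17 alternatives, 162 of 170 fold changes of the 10 genes kept their direction and their side of the threshold, 4 passed it and 4 turned sign; of 234 for the named pathway genes, 223 kept both, 7 passed and 4 turned. DESeq2 called 3 of the 10 and 4 other pathway genes, and edgeR without a low-count filter called 1 of each (Tgfbr1 and Col1a1). With female 2 and male 1 left out, 1 pathway gene (Col1a1) was called, Tgfb1 had -0.011 and Inhba 0.043, and the median was -0.22 for the other receptors (0.010 with all libraries) and 0.033 for the extracellular antagonists (-0.059). Leaving out 1 library at a time called 0 to 1 pathway genes and gave -0.34 to 0.026 for Inhba, -0.24 to 0.087 for Inhbb, -0.081 to 0.11 for Gdf11, -0.013 to 0.17 for Bambi and -0.13 to 0.30 for the log2 Inhba to Fst ratio; the cause was not tested. Counts over all genes, 3 higher in female and 18 in male nerves, were 44 and 147 without a filter, 233 and 638 by DESeq2, and 5 and 10 by limma on log2(TPM + 1). Higher in female nerves were 6 by limma-voom, 7 by limma on log2(TPM + 0.1) and 6 without female 2 and male 1. Leaving out 1 library gave 0 to 17 and 4 to 188, the highest without female 3. With the replicate number as a block the counts were 0 and 3, and none of the 10 genes was called; same-numbered libraries shared only a number (correlations of deviations -0.14, -0.26 and 0.022). Precision is limited by 3 libraries a sex.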

Other observations

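Some pathway genes followed the libraries with muscle or fat transcripts; they were chosen after their values were seen. Mstn, which encodes the muscle ligand myostatin, had 11 reads in female 2, 18 in male 1 and 1 in male 3, and none in the other libraries. Acvr1c, an activin-type receptor of adipose tissue, was at 2.44 TPM in female 2, against 0.507 to 1.29 TPM elsewhere, and the 6 adipocyte markers summed to 1129 CPM in female 2 and to 361 to 728 CPM elsewhere. Itgb6, an epithelial integrin subunit that releases TGF-beta, had 112 reads in female 2 and 3 to 13 in the other libraries. The part of neighbouring tissue in these values was not tested.

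Ltbp4, a latent TGF-beta binding protein gene, differed by scale: in TPM it was at 27.1, 26.0 and 28.5 in females 1 to 3 and at 41.7, 36.7 and 51.5 in males 1 to 3, without overlap, while in scaled CPM females (73.8 to 90.5) and males (88.4 to 120) overlapped. Its log2 fold change was -0.38 (edgeR adjusted p = 0.249).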
